A study of Mus musculus with 6 samples.

Results

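A set of 10 genes of the NRF2 antioxidant pathway was followed in mouse macrophages after contact with fungal vesicles: Hmox1, Gclm, Gclc, Nqo1, Srxn1, Prdx1, Sqstm1, Nfe2l2, Keap1 and Txn1. They were chosen by symbol, each matched 1 entry of the gene count table, and these 10 entries stand among 41972. All 10 passed the filter on low counts. The cells were macrophages grown for 6 days from the bone marrow of wild-type male C57BL/6 mice of 6 weeks, in medium with 20% serum and 30% conditioned medium of L-929 cells, which supplies the growth factor M-CSF. For 6 h the cells were kept with extracellular vesicles (EVs) shed by Aspergillus flavus, a mould, in a dose of 20 µg in each well, or with PBS alone. The EV groups were LD-F1 (2 libraries) and LD-F1_b (2 libraries), which the sample titles call strains, and the reference cells were given PBS (2 libraries). The meaning of the suffix in LD-F1_b is not known here. Libraries are described as biological replicates but none is tied to an animal or culture, so p-values measure the spread between these libraries, which may be technical.

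NRF2, the protein of Nfe2l2, is a transcription factor that is held in the cytoplasm and marked for degradation by KEAP1. Oxidants and electrophiles modify KEAP1, and the autophagy adaptor p62, encoded by Sqstm1, can bind KEAP1 in competition with NRF2; either way NRF2 accumulates, pairs with small MAF proteins and binds antioxidant response elements. Its known targets make glutathione, reduce peroxides and quinones and, through Hmox1, break down haem. Because NRF2 is controlled largely by protein stability, the mRNA of Nfe2l2 is not a measure of its activity.

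Of the 10 genes, 8 rose with LD-F1 EVs over PBS and 6 rose with LD-F1_b EVs over PBS, and 0 fell in either comparison. Hmox1 rose 2.59-fold with LD-F1 EVs and 1.76-fold with LD-F1_b EVs, Sqstm1 2.44-fold and 1.70-fold, and Prdx1 2.02-fold and 1.58-fold. The genes of the regulators themselves, Nfe2l2 and Keap1, did not pass the test in any comparison. A gene was called, and said to rise or fall, at a Benjamini-Hochberg adjusted p under 0.05 in the quasi-likelihood test of edgeR over the 12740 genes tested. Of all genes tested, 21.2% were called with LD-F1 EVs (11.4% higher, 9.87% lower) and 11.0% with LD-F1_b EVs (6.44% higher, 4.54% lower). At an unadjusted p under 0.05 8 of the 10 were higher and 0 lower in both comparisons, where 4214 and 3142 of the 12740 tested genes passed in either direction. DESeq2 called 7 of the 10 higher with LD-F1 EVs and 5 with LD-F1_b EVs, and 0 lower, where it called 1251 and 756 of all genes higher and 1085 and 502 lower. Both libraries of each EV group lay above both PBS libraries for 9 of the 10 genes and below them for Keap1; over all tested genes these shares were 29.9% above and 29.6% below with LD-F1 EVs, and 30.4% and 30.0% with LD-F1_b EVs. The median log2 fold change of the 10 genes was 0.72 with LD-F1 EVs and 0.53 with LD-F1_b EVs, beside 0.0057 and 0.0055 over all tested genes. The 10 genes were chosen with earlier results of these data known, so their counts and medians may partly reflect that choice. The comparisons with PBS share their PBS libraries. Over 12 alternative analyses the number of the 10 genes called was 6 to 8 for LD-F1 EVs and 4 to 8 for LD-F1_b EVs, always higher.

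Libraries held 13722215 to 15277997 counts. The LD-F1 replicates differed more from each other than the other pairs did (chi-square per degree of freedom 17.0; LD-F1_b 5.38, PBS 3.11). Across 9661 genes, which are no independent replicates, their log2 difference had a Spearman's rho of -0.48 with gene length, where the LD-F1_b pair had -0.19 and the PBS pair -0.0079. Macrophage markers summed to 3131 to 3302 CPM (counts divided by the scaled library total) with LD-F1 EVs, 3365 to 3495 with LD-F1_b EVs and 3347 to 3362 with PBS, with 0 of the 11 in the table at 0 throughout. Other cell types were scarce. Markers of T, NK and B cells summed to at most 0.630 CPM in any library and erythroid markers to at most 1.04, while neutrophil markers reached 3.52 CPM, with S100a9, Ly6g, Elane, Ngp and Retnlg at 0. Dendritic cell markers summed to 8.89 to 8.99 CPM with LD-F1 EVs, 6.15 to 7.16 with LD-F1_b EVs and 2.90 to 3.26 with PBS, with Siglech and Ccr7 at 0. Most of this sum with EVs was Xcr1, at 7.7 and 8.4 CPM with LD-F1 EVs, 4.8 and 4.1 with LD-F1_b EVs and 1.3 and 1.1 with PBS. Of the 3 dendritic cell markers tested, 1 was called higher over PBS with each EV group and 0 lower. Their median log2 fold change was -0.91 with LD-F1 EVs and 0.43 with LD-F1_b EVs. Fibroblast and endothelial markers reached 2.32 CPM. Their part in the results was not tested. In bulk RNA, fewer cells that express a gene and less RNA of it per cell cannot be told apart.

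With library totals in place of TMM factors, which correct for differences in RNA composition, the median log2 fold change of all genes with LD-F1 EVs was -0.10. Of the 2707 genes called with LD-F1 EVs 53.5% were higher, or 33.6% with totals alone; of the 1398 called with LD-F1_b EVs 58.7% were higher, or 41.7% with totals alone.

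**Figure D1:**
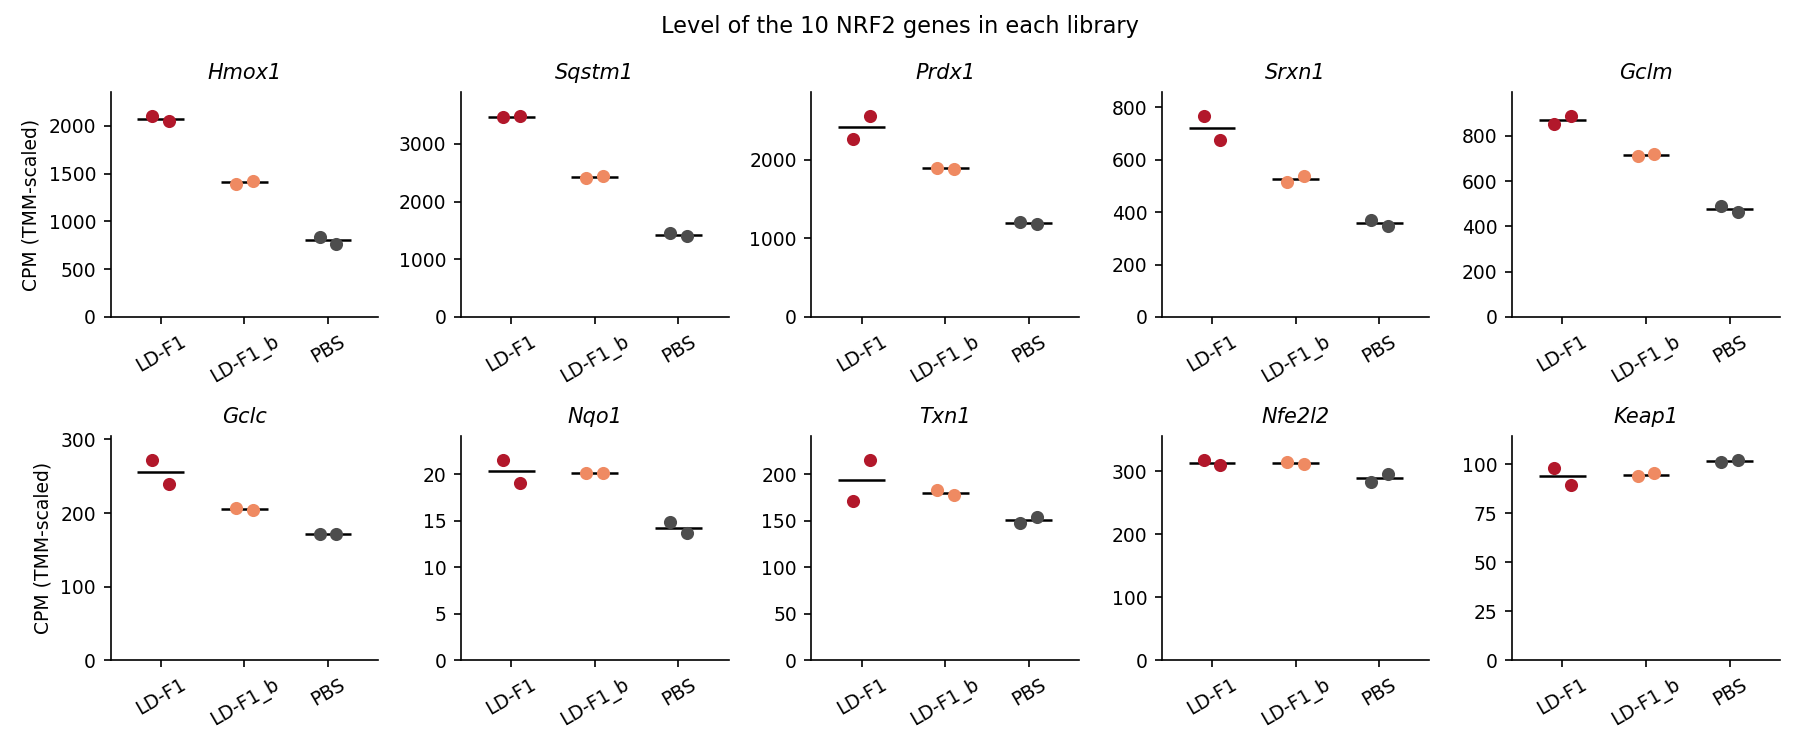
Level of each of the 10 genes in each library, as TMM-scaled CPM on a linear axis from 0, for LD-F1 EVs, LD-F1_b EVs and PBS; points are libraries and lines are means of 2. Hmox1, Sqstm1, Prdx1, Srxn1, Gclm and Gclc lie highest with LD-F1 EVs, between with LD-F1_b EVs and lowest with PBS, whereas Nfe2l2 and Keap1 lie close together in all groups.

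The sequence before the start site is shown for 3 genes that rose with both EV groups and hold matches of a searched motif, so that these can be seen in place. RefSeq promoter windows (build GRCm38.p6, not the build of the count table) were matched by symbol for 8 of the 10 genes, all but Hmox1 and Gclc. The 250 bases upstream were searched on both strands for TGACNNNGC, the core of the antioxidant response element, and for TGACTCA, the site of AP-1. A sequence reading TGACTCAGC holds both. The windows are chr4:116685349-116685598 on the plus strand for Prdx1, chr2:152105274-152105523 on the plus strand for Srxn1 and chr3:122245307-122245556 on the plus strand for Gclm. Each is written 5′ to 3′ on the gene's strand, with matches of either motif in capitals.
Prdx1: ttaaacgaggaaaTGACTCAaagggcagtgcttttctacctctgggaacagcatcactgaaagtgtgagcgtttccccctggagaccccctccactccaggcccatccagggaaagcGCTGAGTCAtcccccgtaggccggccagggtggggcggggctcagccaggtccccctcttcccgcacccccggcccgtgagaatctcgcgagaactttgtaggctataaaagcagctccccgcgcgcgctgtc
Srxn1: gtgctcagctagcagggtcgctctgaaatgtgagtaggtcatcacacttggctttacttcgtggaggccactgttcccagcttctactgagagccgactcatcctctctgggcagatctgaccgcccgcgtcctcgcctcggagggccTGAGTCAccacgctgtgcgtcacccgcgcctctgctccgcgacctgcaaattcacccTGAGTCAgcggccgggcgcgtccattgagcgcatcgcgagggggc
Gclm: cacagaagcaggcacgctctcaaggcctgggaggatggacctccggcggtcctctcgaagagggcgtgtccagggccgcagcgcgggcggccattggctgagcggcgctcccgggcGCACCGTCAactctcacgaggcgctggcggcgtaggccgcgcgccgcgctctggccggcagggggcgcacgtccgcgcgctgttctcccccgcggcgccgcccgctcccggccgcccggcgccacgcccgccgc

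Prdx1 held a core element that overlaps an AP-1 site from 133 to 125 bases upstream, where the minus strand reads TGACTCAGC, and another AP-1 site from 237 to 231. Srxn1 held AP-1 sites from 102 to 96 and from 45 to 39 bases upstream and no match of TGACNNNGC. With the bases that follow, its site from 45 upstream reads TGAGTCAGC, which these letters do not cover, and other forms of the element were not searched. Gclm held a core element from 134 to 126, read on the minus strand as TGACGGTGC. Nfe2l2 held a core element from 240 to 232 bases upstream, TGACTCCGC. Of the 8 genes, 3 had the core element and 2 an AP-1 site, where 10.2% and 4.46% of the 32851 windows of this length in the table had them. Nqo1, Sqstm1, Keap1 and Txn1 had neither in this window. These are descriptions of letters near the start site and were not tested against the expression changes.

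Hmox1 encodes haem oxygenase 1, the inducible enzyme that splits haem into biliverdin, iron and carbon monoxide. It lies on chromosome 8 from 78476857 to 78486030 on the plus strand; this and the positions below are the table's own. Its level was 2101 and 2051 CPM with LD-F1 EVs, 1392 and 1424 CPM with LD-F1_b EVs, and 835 and 767 CPM with PBS. The 3 groups were fully separated, with LD-F1 highest and PBS lowest. By count it ranked 28 and 29 among all genes of the LD-F1 libraries, 47 in both LD-F1_b libraries, and 99 and 110 in the PBS libraries. The log2 fold change over PBS was 1.37 ± 0.08 for LD-F1 EVs (SE, n = 2 per group, adjusted p = 5.44e-07; fold 2.59, 95% interval 2.28 to 2.94). For LD-F1_b EVs it was 0.81 ± 0.08 (adjusted p = 7.04e-05; fold 1.76, 95% interval 1.55 to 1.99). A larger log2 fold change than that of Hmox1 was found for 283 tested genes with LD-F1 EVs and for 590 with LD-F1_b EVs.

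Hmox2, the constitutive haem oxygenase, was at 33.1 and 41.1 CPM with LD-F1 EVs, 39.9 and 36.3 with LD-F1_b EVs, and 45.0 and 43.7 with PBS, and did not pass the test (log2 fold change -0.26 ± 0.12, adjusted p = 0.176, and -0.22 ± 0.12, adjusted p = 0.316). Per length of gene, Hmox1 stood to Hmox2 as 63.0 and 49.4 with LD-F1 EVs, 34.5 and 38.8 with LD-F1_b EVs, and 18.4 and 17.4 with PBS. The ratio was higher in every EV library than in either PBS library, but was not tested. Biliverdin, the product of haem oxygenase, is reduced to bilirubin by biliverdin reductases. Blvrb was at 164 and 214 CPM with LD-F1 EVs, 160 and 183 with LD-F1_b EVs, and 97.4 and 92.9 with PBS, and rose in both comparisons (0.99 ± 0.12, adjusted p = 1.25e-04, and 0.85 ± 0.12, adjusted p = 8.41e-04). Blvra did not pass (-0.14 ± 0.12 and 0.00 ± 0.12). For iron, which haem oxygenase releases, the exporter gene Slc40a1 rose in both comparisons (0.61 ± 0.08 and 0.43 ± 0.08), and the ferritin heavy chain gene Fth1 rose with LD-F1 EVs (0.46 ± 0.10, adjusted p = 0.00721) and was at 0.28 ± 0.10 with LD-F1_b EVs (adjusted p = 0.104).

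Sqstm1 encodes p62, an adaptor of selective autophagy and a binding partner of KEAP1 (chromosome 11, 50826600 to 50839323, minus strand). It was the most abundant of the 10 by count, at rank 10 and 11 among all genes of the LD-F1 libraries, 20 and 21 with LD-F1_b EVs, and 35 and 40 with PBS. Levels were 3461 and 3481 CPM with LD-F1 EVs, 2402 and 2444 CPM with LD-F1_b EVs, and 1449 and 1401 CPM with PBS. As for Hmox1, the groups did not overlap. The log2 fold change over PBS was 1.28 ± 0.08 with LD-F1 EVs (adjusted p = 5.7e-07) and 0.77 ± 0.08 with LD-F1_b EVs (adjusted p = 7.58e-05). Across the 6 libraries Sqstm1 followed Hmox1 more closely than the other 8 genes did (Pearson's r of log2 CPM 0.999); the libraries fall into 3 groups that both genes separate, so this describes the groups more than the libraries within them.

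Nfe2l2 and Keap1, the regulator and its inhibitor, differed little between groups. Nfe2l2 lies on chromosome 2 from 78301317 to 78338538 and Keap1 on chromosome 9 from 19164527 to 19174129, both on the minus strand. Nfe2l2 was at 319 and 309 CPM with LD-F1 EVs, 315 and 312 with LD-F1_b EVs, and 283 and 296 with PBS. Every EV library lay above both PBS libraries, but by 1.09-fold on average with LD-F1 EVs (95% interval 0.962 to 1.22, adjusted p = 0.334) and 1.08-fold with LD-F1_b EVs (0.960 to 1.22, adjusted p = 0.422). Keap1 was at 98.3 and 89.5 CPM with LD-F1 EVs, 93.8 and 95.6 with LD-F1_b EVs, and 101 and 102 with PBS, with folds of 0.923 (95% interval 0.804 to 1.06, adjusted p = 0.415) and 0.931 (0.811 to 1.07, adjusted p = 0.538). Neither gene was called in any of the 12 alternatives. The intervals leave out a change of the size of Hmox1, whose lower bounds were 2.28 and 1.55. They do not leave out a rise of Nfe2l2 up to 1.22-fold or a fall of Keap1 down to 0.804 and 0.811 times its PBS level. Per length, Nfe2l2 stood to Keap1 as 3.98 and 4.24 with LD-F1 EVs, 4.12 and 4.0 with LD-F1_b EVs, and 3.44 and 3.55 with PBS. This ratio was not tested.

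**Figure D2:**
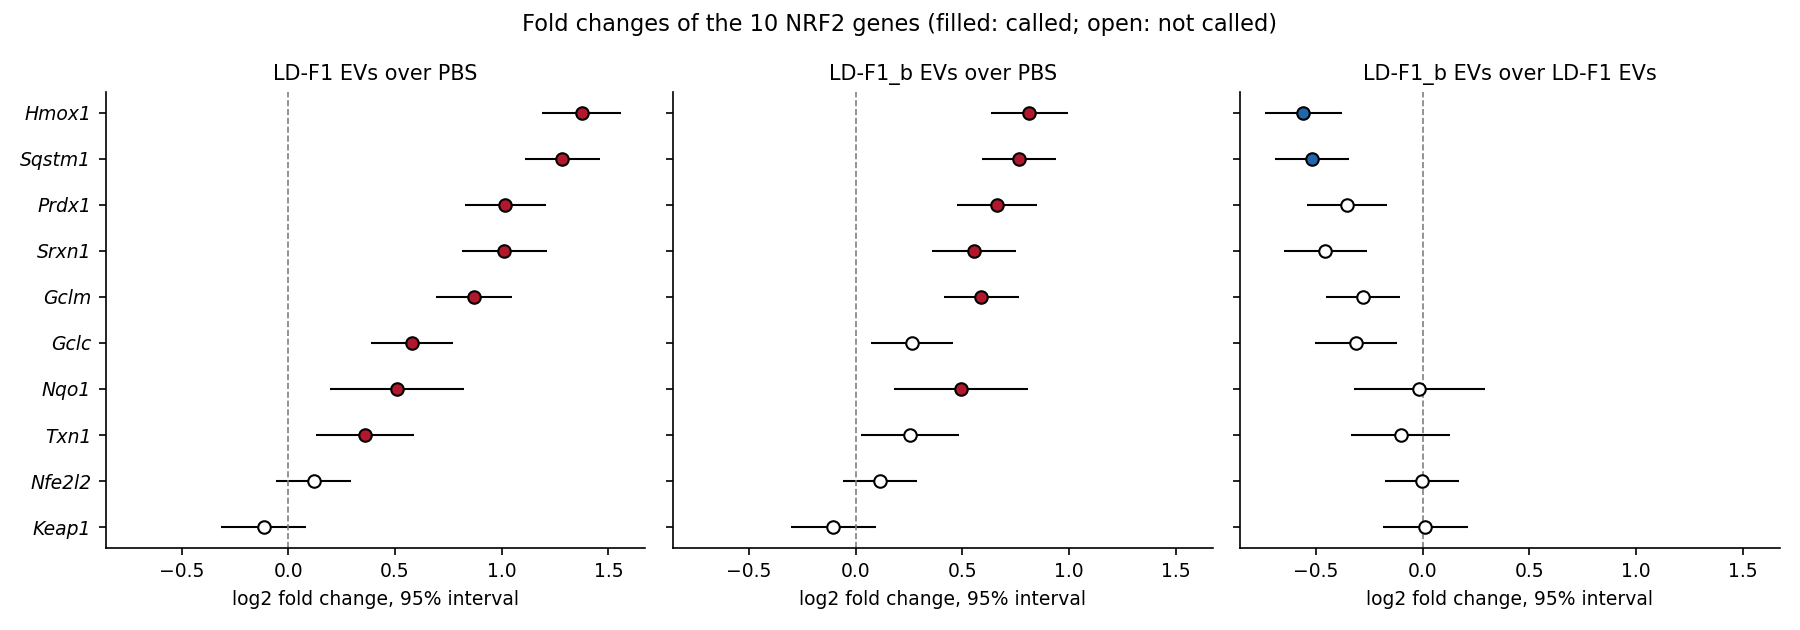
Log2 fold changes of the 10 genes with 95% intervals (horizontal lines) in the 3 comparisons, on 1 common axis; filled points were called by edgeR and open points were not. Hmox1 and Sqstm1 lead both comparisons with PBS, at 1.37 and 1.28 with LD-F1 EVs, and are the ones called lower with LD-F1_b than with LD-F1 EVs; Nfe2l2 and Keap1 have intervals that include 0 throughout.

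Prdx1, Srxn1 and Txn1 belong to the thiol peroxidase system. Peroxiredoxin 1 reduces hydrogen peroxide, thioredoxin (Txn1) restores it after each cycle, and sulfiredoxin (Srxn1) rescues it when it has been over-oxidised. Prdx1 lies on chromosome 4 from 122152825 to 122168095 (plus strand), Txn1 on the same chromosome from 58788728 to 58801711 (minus strand) and Srxn1 on chromosome 2 from 161194650 to 161202250 (plus strand). Prdx1 was at 2267 and 2552 CPM with LD-F1 EVs, 1890 and 1883 CPM with LD-F1_b EVs, and 1203 and 1180 CPM with PBS. It rose by a log2 fold change of 1.02 ± 0.09 with LD-F1 EVs (adjusted p = 6.61e-06) and 0.66 ± 0.09 with LD-F1_b EVs (adjusted p = 4.14e-04). The groups were again separate, and the LD-F1 libraries differed most from each other. Srxn1 was at 766 and 676 CPM with LD-F1 EVs, 513 and 537 CPM with LD-F1_b EVs, and 369 and 345 CPM with PBS. It rose by 1.01 ± 0.09 (adjusted p = 9.67e-06) and 0.56 ± 0.09 (adjusted p = 0.00189). The second of these calls was lost without LD-F1_b replicate 2 (adjusted p = 0.0662) and without PBS replicate 2 (adjusted p = 0.0658), in a range of 1.75e-07 to 0.0662 over the 12 alternatives.

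Txn1 was at 171 and 215 CPM with LD-F1 EVs, 182 and 178 CPM with LD-F1_b EVs, and 148 and 154 CPM with PBS. Its EV libraries lay above the PBS libraries, and LD-F1 replicate 1 was the lowest of the 4. It rose by 0.36 ± 0.11 with LD-F1 EVs (adjusted p = 0.0314), whereas 0.26 ± 0.11 with LD-F1_b EVs did not pass (adjusted p = 0.159). Txn1 is the shortest of the 10 genes at 1052 bases and showed the largest difference between LD-F1 replicates, 0.33 on the log2 scale; the part of the gene length relation in this was not tested. Without LD-F1 replicate 2 the log2 fold change fell to 0.18 (adjusted p = 0.0752), and without LD-F1 replicate 1 it was 0.51. The call with LD-F1 EVs held in 5 of the 12 alternatives, with adjusted p from 9.67e-06 to 0.238; it was also lost without LD-F1_b replicate 1 or 2 (0.0829 and 0.0855) and without PBS replicate 1 or 2 (0.238 and 0.145), with library totals alone (0.105) and with only the groups compared (0.0876). With LD-F1_b EVs it was called in 3 of the 12, without LD-F1 replicate 1 or 2 (adjusted p = 0.00308 and 0.00263) and with only the groups compared (0.00368; range 0.00263 to 0.600). Per length, Srxn1 stood to Prdx1 as 0.364 and 0.285 with LD-F1 EVs, 0.292 and 0.307 with LD-F1_b EVs, and 0.330 and 0.315 with PBS, so that the range with LD-F1 EVs covers that of both other groups.

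Gclm and Gclc encode the modifier and the catalytic subunit of glutamate-cysteine ligase, which carries out the limiting step of glutathione synthesis. Gclm lies on chromosome 3 from 129005047 to 129027430 and Gclc on chromosome 9 from 80296095 to 80338859, both on the plus strand. Gclm was at 854 and 888 CPM with LD-F1 EVs, 713 and 721 CPM with LD-F1_b EVs, and 488 and 465 CPM with PBS. It rose by 0.87 ± 0.08 (adjusted p = 1.32e-05) and 0.59 ± 0.08 (adjusted p = 5.89e-04). Gclc was at 273 and 240 CPM with LD-F1 EVs, 207 and 204 CPM with LD-F1_b EVs, and 171 and 171 CPM with PBS. It rose with LD-F1 EVs (0.58 ± 0.09, adjusted p = 5.72e-04), while 0.27 ± 0.09 with LD-F1_b EVs did not pass (adjusted p = 0.0801), although both LD-F1_b libraries lay above both PBS libraries. That value was called without LD-F1 replicate 1 or 2 (adjusted p = 0.00164 and 0.00131) and with only the groups compared (0.00191), in a range of 0.00131 to 0.441. Per length, Gclm stood to Gclc as 8.72 and 10.3 with LD-F1 EVs, 9.57 and 9.82 with LD-F1_b EVs, and 7.93 and 7.55 with PBS. The EV libraries all had a higher ratio of the modifier to the catalytic subunit than the PBS libraries, but the ratio was not tested.

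Nqo1 encodes the quinone reductase that is often used as a readout of NRF2 (chromosome 8, 113828429 to 113843415, minus strand). It was the scarcest of the 10, with 288 and 268 counts with LD-F1 EVs, 289 and 291 counts with LD-F1_b EVs, and 228 and 217 counts with PBS. In CPM it was at 21.6 and 19.1 with LD-F1 EVs, 20.1 and 20.1 with LD-F1_b EVs, and 14.9 and 13.7 with PBS. Both EV groups lay above PBS and overlapped each other. It rose by 0.51 ± 0.14 with LD-F1 EVs (adjusted p = 0.0257) and 0.49 ± 0.14 with LD-F1_b EVs (adjusted p = 0.0467). Its standard error was the widest of the 10. The calls held in 4 and 5 of the 12 alternatives, with adjusted p from 0.0101 to 0.224 and from 0.00953 to 0.355. For LD-F1 EVs the call was lost without LD-F1 replicate 1 (adjusted p = 0.0563), LD-F1_b replicate 1 or 2 (0.0540 and 0.0537) and PBS replicate 1 or 2 (0.117 and 0.224), with DESeq2 (0.0625), with library totals alone (0.0647) and with only the groups compared (0.0555). For LD-F1_b EVs it was lost without LD-F1_b replicate 1 or 2 (0.208 and 0.218) and PBS replicate 1 or 2 (0.218 and 0.355), with DESeq2 (0.108), with library totals alone (0.0830) and with the replicate block (0.0523).

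**Figure D3:**
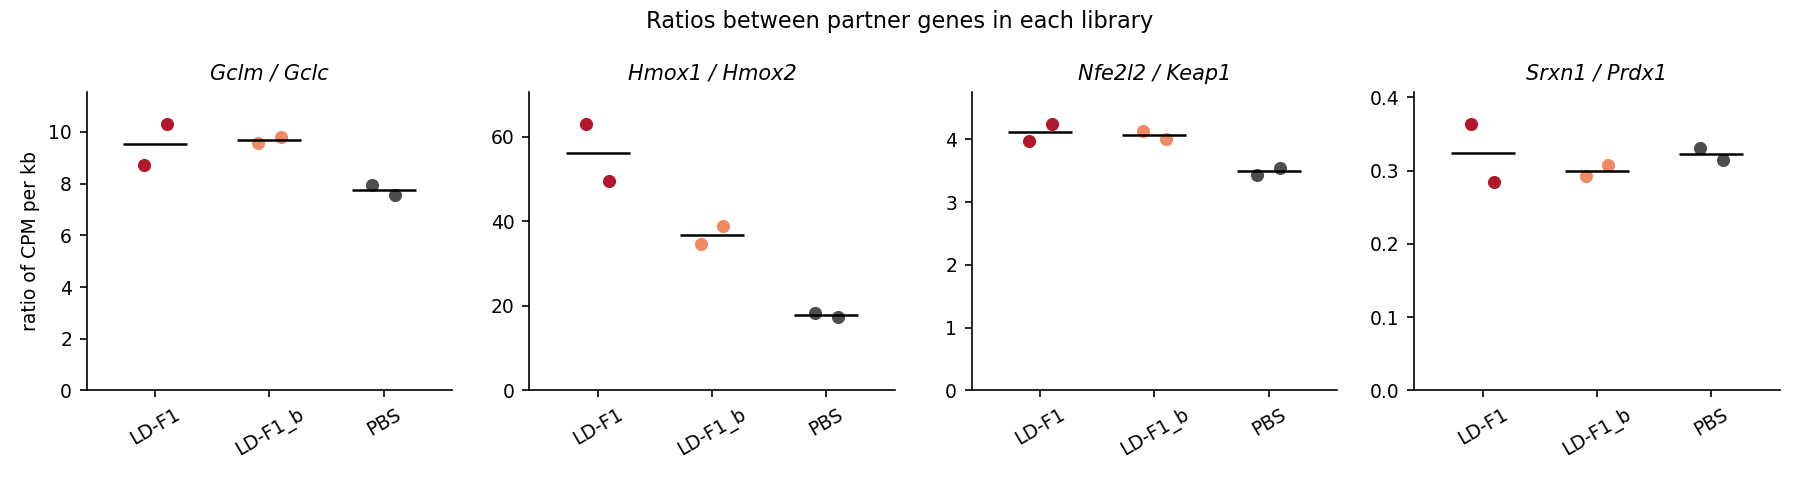
Ratios of CPM per kb between partner genes in each library, on linear axes from 0; points are libraries and lines are means of 2. Gclm over Gclc, Hmox1 over Hmox2 and Nfe2l2 over Keap1 are higher in every EV library than in either PBS library, and Srxn1 over Prdx1 overlaps between groups. The ratios were not tested, and neither Nfe2l2 nor Keap1 was called. Of single tested genes, 29.9% lay above PBS in both LD-F1 libraries and 29.6% below. With LD-F1_b EVs these shares were 30.4% and 30.0%.

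Levels between genes were compared per length, as CPM per kb of gene. With PBS the order was Sqstm1 (425 CPM per kb), Prdx1 (393), Gclm (387), Hmox1 (371), Txn1 (143), Srxn1 (127), Nfe2l2 (76.2), Gclc (50.03), Keap1 (21.8) and Nqo1 (9.19). The PBS libraries of Gclm (397 and 378) overlapped those of Prdx1 (396 and 389) and those of Hmox1 (386 and 355), so Gclm has no order with either, while both Prdx1 libraries lay above both Hmox1 libraries. With LD-F1 EVs the order began with Sqstm1 (1034), Hmox1 (961), Prdx1 (794) and Gclm (708), and with LD-F1_b EVs with Sqstm1 (722), Hmox1 (652), Prdx1 (622) and Gclm (583), each separate from the next in both of its libraries. Srxn1 (256 and 186) lay above Txn1 (184 and 171) in both EV groups and below it with PBS. The median of all tested genes was 7.23 to 7.51 CPM per kb in a library, so Nqo1 lay just above it. Together the 10 genes took 1.0% and 1.01% of the counts of the LD-F1 libraries, 0.765% and 0.774% with LD-F1_b EVs, and 0.528% and 0.509% with PBS.

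**Figure D4:**
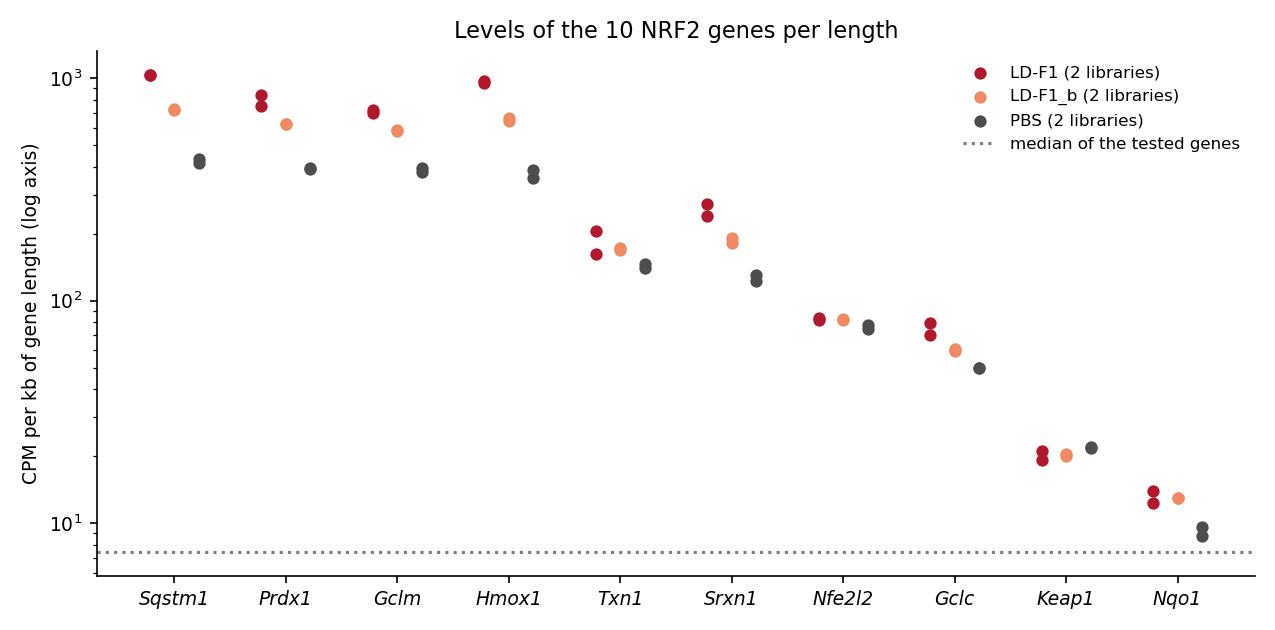
Level of the 10 genes per length, in CPM per kb on a log axis, ordered by the mean with PBS; points are libraries and the dotted line is the median of the tested genes. With EVs Hmox1 lies above Prdx1 and Gclm and Srxn1 lies above Txn1, while with PBS Hmox1 lies below Prdx1 and overlaps Gclm.

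Hmox1 and Sqstm1 were lower with LD-F1_b EVs than with LD-F1 EVs when the EV groups were compared directly. Hmox1 was at 0.678 times its LD-F1 level (log2 fold change -0.56 ± 0.08, 95% interval of the fold 0.598 to 0.769, adjusted p = 0.00966), and Sqstm1 at 0.698 times (-0.52 ± 0.08, 0.619 to 0.787, adjusted p = 0.0115). These 2 of the 10 were called lower and 0 higher, where 0.424% of all tested genes were called, 0.408% lower and 0.0157% higher. At an unadjusted p under 0.05 the counts were 6 lower and 0 higher, where 1119 of the 12740 tested genes passed in either direction; DESeq2 called 4 of the 10 lower and 0 higher, where it called 81 of all genes lower and 15 higher. The others did not pass: Srxn1 was at -0.46 ± 0.09 (adjusted p = 0.0549), Prdx1 at -0.35 ± 0.09 (0.140), Gclc at -0.31 ± 0.09 (0.230) and Gclm at -0.28 ± 0.08 (0.254), with both LD-F1_b libraries below both LD-F1 libraries for each of the 4. Both LD-F1_b libraries lay below both LD-F1 libraries for 17.0% of all tested genes. For Txn1 (-0.10 ± 0.11), Nqo1 (-0.02 ± 0.14), Nfe2l2 (0.00 ± 0.08) and Keap1 (0.01 ± 0.09) the EV groups overlapped. The 95% interval of the fold was 0.799 to 1.23 for Nqo1, 0.884 to 1.13 for Nfe2l2 and 0.878 to 1.16 for Keap1.

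The direct comparison turned on single libraries. Without LD-F1_b replicate 1 or 2 neither gene was called (adjusted p = 0.433 and 0.373 for Hmox1, 0.494 and 0.432 for Sqstm1), although the log2 fold changes stayed between -0.58 and -0.50. Sqstm1 was also lost without PBS replicate 1 or 2 (0.0604 and 0.0583), and both were lost when only the EV groups were fitted (0.0503 and 0.0739). Without LD-F1 replicate 1 or 2 the log2 fold change was -0.37 and -0.54 for Srxn1 and -0.44 and -0.26 for Prdx1. It was -0.22 and -0.40 for Gclc and -0.31 and -0.25 for Gclm. Over the 12 alternatives adjusted p ranged from 2.91e-07 to 0.433 for Hmox1 and from 3.99e-07 to 0.494 for Sqstm1. DESeq2, another count test, called Srxn1 and Prdx1 lower as well (adjusted p = 0.00157 and 0.0189; over the alternatives 4.02e-05 to 0.775 and 1.33e-04 to 0.887).

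The rest of the pathway was described with 78 further genes in 7 lists by role, of which 66 were tested. With LD-F1 EVs 31 of the 66 rose and 1 fell, with a median log2 fold change of 0.27. With LD-F1_b EVs 26 rose and 0 fell, with a median of 0.24. Of all tested genes 11.4% rose and 9.87% fell with LD-F1 EVs, and 6.44% and 4.54% with LD-F1_b EVs. These shares also stand beside the counts of each list below. At an unadjusted p under 0.05, 3 and 2 of the 66 were lower, where 4214 and 3142 of the 12740 tested genes passed in either direction. DESeq2 called 1251 and 756 of all genes higher and 1085 and 502 lower. Of the further pathway genes it called 32 and 26 higher and 0 lower. The number called was 22 to 44 over 12 alternatives for LD-F1 EVs and 12 to 36 for LD-F1_b EVs. For LD-F1_b EVs it was 14 and 13 when the first or the second LD-F1_b library was left out, and 12 and 13 when the first or the second PBS library was. Between the EV groups 1 was called: Procr, the gene of the protein C receptor, was lower with LD-F1_b EVs (-0.57 ± 0.09, adjusted p = 0.0122), at 154 and 156 CPM against 244 and 216 CPM with LD-F1 EVs; it was at 68.3 and 68.2 CPM with PBS.

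Among regulators and partners of NRF2, the small MAF genes and Nfe2l1 rose while Nfe2l2 did not pass. Of 10 such genes 4 rose with each EV group, 0 fell and 6 were not called. Maff, which encodes a small MAF protein that pairs with NRF2, was at 38.6 and 36.3 CPM with LD-F1 EVs, 30.5 and 30.2 with LD-F1_b EVs, and 12.1 and 12.4 with PBS (log2 fold changes 1.61 ± 0.13 and 1.3 ± 0.13). The other small MAF genes rose too, Mafk by 0.89 ± 0.11 and 0.61 ± 0.11 and Mafg by 0.50 ± 0.08 and 0.30 ± 0.08. Nfe2l1, a relative of Nfe2l2 known for the control of proteasome genes, rose by 0.70 ± 0.08 and 0.55 ± 0.08. Bach1, the repressor that competes for the same elements and is known to hold down Hmox1, was at 0.05 ± 0.13 (adjusted p = 0.834) and -0.16 ± 0.13 (adjusted p = 0.491). Cul3, the scaffold of the ligase that KEAP1 serves, was at -0.01 ± 0.08 and -0.04 ± 0.08.

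Glutathione and cystine genes had 8 of 13 higher with each EV group and 0 lower. Slc7a11, the cystine importer, was at 610 and 445 CPM with LD-F1 EVs, 376 and 345 with LD-F1_b EVs, and 177 and 168 with PBS (1.61 ± 0.13 and 1.06 ± 0.13). Glutathione synthetase (Gss) rose by 1.05 ± 0.10 and 0.56 ± 0.10, and glutathione reductase (Gsr) by 0.66 ± 0.09 and 0.46 ± 0.09. Chac1, which degrades glutathione and so acts in the opposite direction, rose by 3.86 ± 0.20 and 3.31 ± 0.20, from a low level (33.1 and 31.2 CPM with LD-F1 EVs, 20.0 and 23.8 with LD-F1_b EVs, 1.83 and 2.58 with PBS). The glutathione peroxidase genes Gpx1 and Gpx4 did not pass (-0.09 ± 0.12 and -0.09 ± 0.10 with LD-F1 EVs). Slc7a11, Slc3a2, Chac1, Sesn2, Mthfd2 and Slc6a9 are also known targets of the stress factor ATF4.

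In the thioredoxin and peroxiredoxin list 6 of 10 rose with LD-F1 EVs and 4 with LD-F1_b EVs, with 0 lower. Sesn2, which encodes a stress-inducible sestrin, rose by 2.18 ± 0.12 and 1.77 ± 0.12, Prdx5 by 0.75 ± 0.11 and 0.54 ± 0.11 and Prdx6 by 0.53 ± 0.09 and 0.34 ± 0.09. Txnip, which inhibits thioredoxin, rose by 0.51 ± 0.09 and 0.45 ± 0.09. Of 9 NADPH-supplying enzymes 4 rose with LD-F1 EVs and 3 with LD-F1_b EVs. Mthfd2, of mitochondrial folate metabolism, rose by 1.56 ± 0.11 and 1.23 ± 0.11, malic enzyme (Me1) by 0.77 ± 0.11 and 0.41 ± 0.11 and Pgd of the pentose phosphate pathway by 0.41 ± 0.08 and 0.34 ± 0.08. Of 8 haem and iron genes 4 and 2 rose, and of 2 genes of superoxide and peroxide removal, Sod1 and Cat, 0 were called by edgeR (1 of 2, Cat, at an unadjusted p under 0.05 in each comparison). Among 14 detoxification and other target genes 5 rose with each EV group, led by Procr and Slc6a9, with the aldo-keto reductase gene Akr1b8 at 0.96 ± 0.09 and 0.68 ± 0.09. Nqo2, the quinone reductase related to Nqo1, fell with LD-F1 EVs (-0.39 ± 0.13, adjusted p = 0.0458), at 31.9 and 30.2 CPM against 39.0 and 42.5 CPM with PBS; DESeq2 did not call it.

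**Figure D5:**
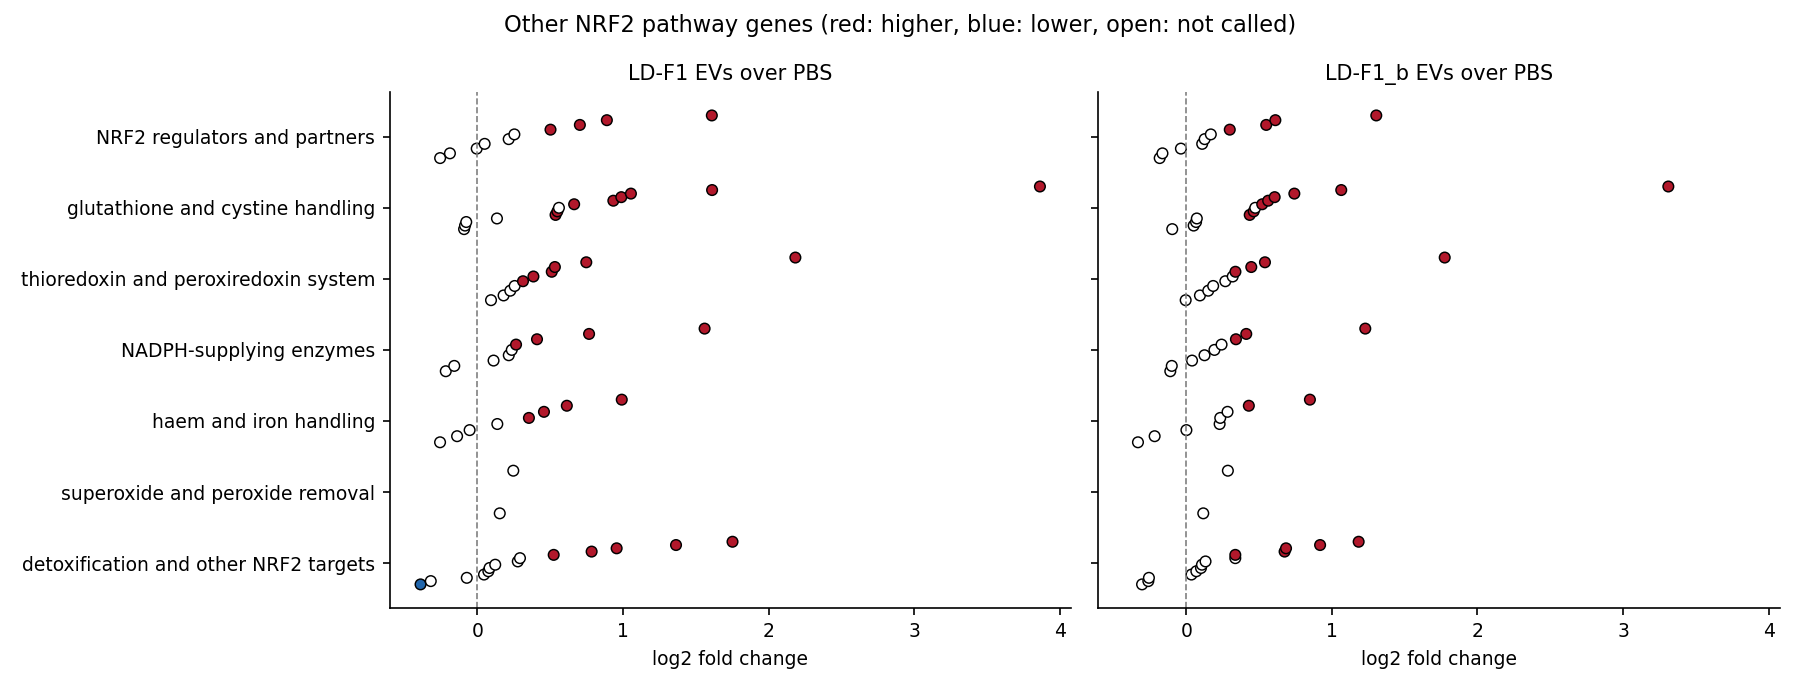
Log2 fold changes over PBS of the 66 further pathway genes tested, by list, for LD-F1 EVs (left) and LD-F1_b EVs (right); each point is a gene, red if called higher, blue if called lower and open if not called. Called genes lie to the right of 0 in each list except that of superoxide and peroxide removal, which has none, and Nqo2 is the blue point, with LD-F1 EVs at -0.39.

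Genes with the pattern most like that of Hmox1 were sought outside the 10, among 3578 named genes with a mean of at least 5 CPM and a range of at least 0.5 on the log2 scale. By Pearson's r of log2 CPM over the 6 libraries they were Gbp2 (0.998), Swap70 (0.998), Trafd1 (0.997), Xaf1 (0.997) and Osgin2 (0.997). They differed in size: Gbp2 was at 14.1 and 12.7 CPM with LD-F1 EVs, 4.66 and 5.25 with LD-F1_b EVs, and 1.57 and 1.07 with PBS. Swap70 was at 225 and 221 CPM with LD-F1 EVs, 182 and 177 with LD-F1_b EVs, and 132 and 130 with PBS. Of the other 9 genes followed here, Gclm (0.993), Srxn1 (0.993), Prdx1 (0.987), Gclc (0.965) and Nqo1 (0.903) had lower values than Sqstm1, and Nfe2l2, Txn1 and Keap1 had 0.836, 0.804 and -0.745. The points share their libraries and scaling, and no test is attached to these values.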

How the data were processed

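Poly(A)-selected RNA, per the labels' protocols, was sequenced on an Illumina NovaSeq, per the series' design text. The authors deposited raw counts of reads for each gene and the length of each gene in bases. The submitters' processing notes name the build GRCm39 and, in no stated order or role, featureCounts (1.5.0-p3), StringTie (1.3.3b), HISAT2 (2.0.5) and fastp; the identifiers of the 10 genes are those of the C57BL/6NJ annotation, and positions are given as in the table. How strand and multi-mapping reads were handled is not stated. Prdx1 and Txn1 have pseudogene entries in the table (at most 9 and 2 counts). Sqstm1 and Keap1 overlap a gene on the other strand (at most 26 and 46 counts), and Nfe2l2 overlaps a gene on its own strand (at most 9 counts). The levels of these genes are uncertain for this reason. Reads discarded as ambiguous would be missing from both entries, so the counts given do not bound that uncertainty. Of per-sample columns, 0 stayed unmatched.

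Genes were kept by filterByExpr (12740 of 41972) and TMM factors ran from 0.965 to 1.04. A single fit took all 6 libraries, a robust quasi-likelihood model in edgeR 4.0.16 (R 4.3.3), with 3 residual degrees of freedom; the script was tested on simulated data. CPM use the totals of tested genes and these factors. A floor of 3 counts is 0.189 to 0.225 CPM, which covers counting error only. Errors are SE computed back from the F test, and log2 CPM used a prior count of 2. Alternatives were DESeq2 1.42.0, other scalings, no filter, only the groups compared, a replicate block and leaving out each library. The genes and lists were chosen with earlier results of these data known. The text names all 10 genes, called genes of the lists, and the 5 genes most like Hmox1; other list genes are given as values.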

Additional observations from a re-analysis of the deposited data

How the results depend on the processing

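Fold changes of the 10 genes were recomputed under 12 alternatives, 360 values in all. Of these 301 kept their direction and side of the threshold, 32 lost and 19 gained a call, and 8 changed sign, none of them called; the cause was not tested. Those were, for LD-F1_b over LD-F1 EVs, Nqo1 and Nfe2l2 with library totals alone (0.0163 and 0.0286) and, leaving out 1 library, Nqo1 (-0.101 to 0.0736), Nfe2l2 (-0.0230 to 0.0153), Keap1 (-0.0527 to 0.0780) and Txn1 (-0.263 to 0.0737). Between the EV groups 54 genes, 2 of the 10 and 1 further pathway gene were called; these were 96, 4 and 3 with DESeq2, 185, 4 and 4 without a filter, and 33, 0 and 0 with only the groups compared, where LD-F1_b EVs over PBS had 3098. Leaving out 1 library gave 1213 to 4497 genes called for LD-F1 EVs, 401 to 3142 for LD-F1_b EVs and 0 to 1152 between them (1152 and 360 without LD-F1 replicate 1 or 2, 1 and 0 without LD-F1_b replicate 1 or 2), 0 to 7 of the 10 between them, and 12 to 36 (LD-F1_b EVs) or 0 to 17 (between EVs) of the further pathway genes; where a group then held 1 library, it was taken to vary like the others. The further genes were added to the alternatives after the data were seen. With the replicate number as a block, 8, 5 and 2 of the 10 were called, and 2706, 1357 and 52 genes; Nqo1 with LD-F1_b EVs was lost (adjusted p = 0.0523). Deviations of same-numbered libraries correlated at 0.08, -0.02 and 0.00. With 2 libraries a group, these values cannot decide whether same-numbered libraries share an animal, culture or batch. With 2 libraries a group, small changes such as that of Nfe2l2 were not detectable at this depth and spread.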

Other observations

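Of the 78 further pathway genes, 72 were in the table and 6 (Gstp1, Txnrd1, Selenow, Ftl1, Sod2 and Akr1b3) were not analysed here. Of the 72, Mgst1, Cd163 and Cbr3 had 0 counts in all 6 libraries. Ggt5, Hpx and Sod3 had at most 3 counts in any library and were not tested.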
